A study of Mus musculus with 16 samples.

Results

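The 9 genes described here encode enzymes that handle the sulfur of methionine and cysteine: Cth and Cbs of the transsulfuration pathway, Mpst, which makes hydrogen sulfide, Cdo1 and Csad of taurine synthesis, Mat2a and Ahcy of the methionine cycle, and Gclc and Gclm of glutathione synthesis. The list was made with earlier results of these same arrays in view and was chosen by the measured Cth levels, because the Cth transcript had been seen to rise with dexamethasone in WT muscle and not in KO muscle. That response of Cth and its difference between genotypes are therefore given as a description, with no test. Probes were matched to genes by accession. Of 41174 probes, 10 belonged to these 9 genes, and all 10 were well above background on all 16 arrays with none saturated. All 9 genes were therefore among the 25187 features tested, of which 15169 carried a gene symbol.

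The tissue was mouse quadriceps, taken 8 h after a single intraperitoneal injection of dexamethasone, a synthetic glucocorticoid, at 2 mg/kg, or of vehicle. The groups were Klf15 KO mice given dexamethasone, KO mice given vehicle, wild-type (WT) mice given dexamethasone and WT mice given vehicle, with 4 arrays in each. Klf15 encodes a zinc-finger transcription factor that is known in muscle for its control of amino acid breakdown. The labels give the genotype as KO with no allele, strain, age or sex, and number the replicates without saying that each is a separate animal, so p-values measure the spread between these samples.

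Methionine is activated to S-adenosylmethionine by methionine adenosyltransferase, whose catalytic subunit outside the liver is encoded by Mat2a. After the methyl group has been passed on, Ahcy splits the product into adenosine and homocysteine. Transsulfuration then joins homocysteine to serine (cystathionine beta-synthase, Cbs) and cleaves the cystathionine formed to cysteine (cystathionine gamma-lyase, Cth). Cysteine is oxidised and decarboxylated towards taurine, an abundant osmolyte of skeletal muscle, or joined to glutamate for glutathione, and Cth, Cbs and Mpst can also release its sulfur as hydrogen sulfide.

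Levels are log2 of the array signal minus the 75th percentile of the same array, so that 0 is the brightness of the probe at that percentile, and they are set against each other only within a probe. The 75th percentile ranged from 554 to 1169 intensity units, the share of spots well above background from 66.3% to 80.6%, and the correlation between arrays of a group was 0.933 to 0.990. All 10 skeletal muscle markers looked at were well above background on all 16 arrays, among them the creatine kinase gene Ckm at 8.04 to 8.58. In whole muscle, fewer cells of a type and less RNA per cell cannot be told apart. The arrays lay on 8 slides, and with 4 per group precision is limited by their number. Neutrophil markers were raised on 2 arrays, WT dexamethasone replicate 3 (list median 6.93 above the mean of all arrays) and KO dexamethasone replicate 1 (5.45 above it).

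The labels were checked on Klf15 itself. Its level was 0.58, 0.24, 0.64 and 0.60 in KO muscle given dexamethasone and -1.29, -0.83, -0.47 and -0.12 in KO muscle given vehicle, against 4.10, 4.77, 3.94 and 4.40 in WT muscle given dexamethasone and 3.78, 3.25, 2.80 and 3.36 in WT muscle given vehicle. Every KO array lay below every WT array, and the average difference was 14.7-fold (log2 change -3.88, limma adjusted p 3.79e-08). The glucocorticoid target Fkbp5 rose 6.74-fold with dexamethasone in KO muscle and 7.90-fold in WT muscle, with limma adjusted p-values of 4.90e-07 and 3.58e-07. Of its other 2 probes, 1 rose 6.08-fold in KO and 5.33-fold in WT, and 1 rose 2.50-fold in KO (adjusted p 0.000569) but did not pass in WT (1.22-fold, adjusted p 0.377).

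Cth was the member that set the groups furthest apart. Its level was -4.41, -5.36, -5.03 and -5.17 in KO muscle given dexamethasone, -4.65, -4.85, -4.69 and -4.41 in KO muscle given vehicle, 0.39, 0.83, 0.43 and 0.66 in WT muscle given dexamethasone, and -0.64, -1.04, -1.41 and -0.72 in WT muscle given vehicle. WT muscle given dexamethasone thus had the highest levels and WT muscle given vehicle the next, with no overlap between them, and all 8 KO arrays lay below every WT array. The 2 KO groups overlapped. In WT muscle the mean was 0.58 ± 0.20 with dexamethasone and -0.95 ± 0.35 with vehicle (SD, n = 4 each), a difference of 1.53 (SE 0.21), or 2.89-fold. In KO muscle the mean was -4.99 ± 0.41 with dexamethasone and -4.65 ± 0.18 with vehicle (SD, n = 4 each), a difference of -0.34 (95% confidence interval -0.79 to 0.11).

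**Figure D1:**
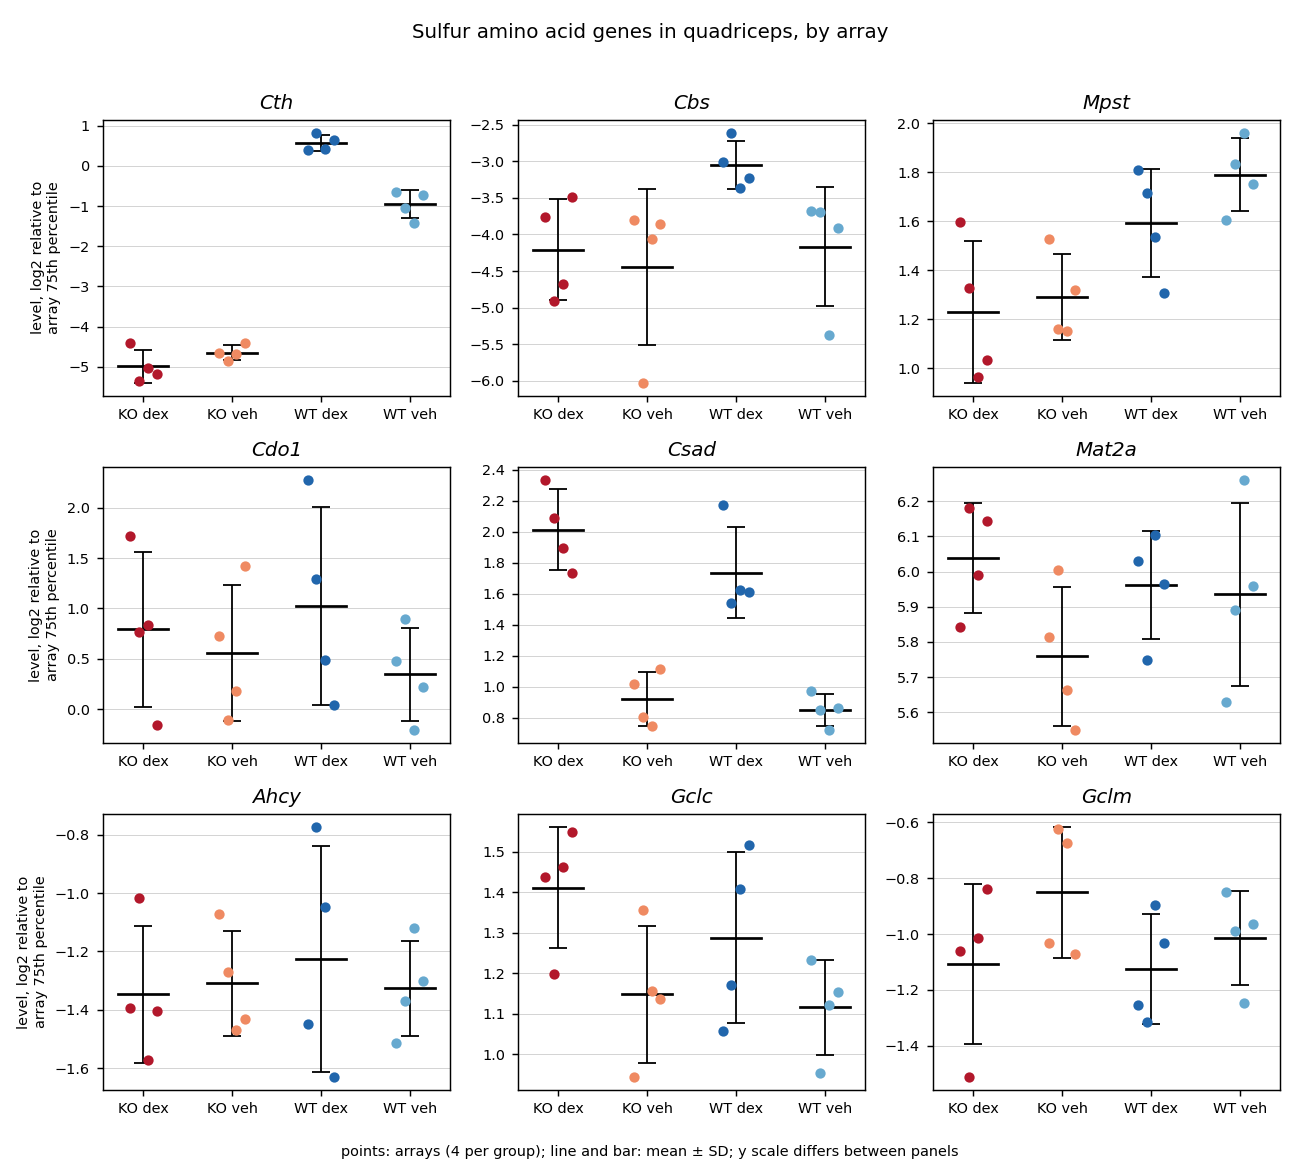
Level of each of the 9 genes on each array (log2 relative to the array's 75th percentile), in KO and WT muscle given dexamethasone (dex) or vehicle (veh); points are arrays, lines means and bars SD (n = 4). Cth lies between -5.36 and -4.41 on the KO arrays and between -1.41 and 0.83 on the WT arrays, Csad is higher with dexamethasone in both genotypes, and the y scale differs between panels.

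Cth mRNA was 47.6-fold lower in KO than in WT muscle under dexamethasone (log2 change -5.57) and 13.0-fold lower under vehicle (-3.70), and the difference between the dexamethasone responses was -1.87 (SE 0.30), all 3 given as descriptions. Over the alternative settings these 3 values ran from -5.82 to -3.28, from -3.85 to -2.32 and from -2.17 to -0.97, in that order. The genotype difference averaged over treatments, which is not the contrast for which Cth was picked, was 24.9-fold (-4.64, SE 0.15, limma adjusted p 5.13e-10). It is the mean of the differences under dexamethasone and under vehicle, from the same arrays whose Cth levels guided the choice. Its p-value is therefore not independent of that choice. By size this genotype difference was the second largest decrease of the 25187 features in that comparison, with Klf15 the third. Its size depended on how background was treated: the average was -3.62 in the authors' deposited log2 values, -2.80 after normexp background correction of the median signal, and -3.00 when the few spots of high local background were left out of that correction, a setting chosen after seeing the data.

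Cth was lower in KO on each slide that held both genotypes under the same treatment. On slides 4, 6 and 7, KO minus WT under vehicle was -3.37, -4.06 and -3.24, and on slide 8 it was -5.69 under dexamethasone. The difference with dexamethasone, again a description, was 0.0072, -0.48 and -0.71 on the 3 slides that held both KO treatments and 1.55 on slide 5, the 1 slide that held both WT treatments. With slide as a fixed block the average genotype difference was -4.59 (adjusted p 0.0012, again not independent of the choice of Cth). Without the 2 arrays of raised neutrophil markers, the rise in WT was 1.58 and the average genotype difference was -4.76. Hepatocyte markers were looked at because the liver is rich in Cth, and 6 of 8 could be tested. Tat was well above background on all 16 arrays (-2.94 to -0.48), Apoa1 on 12, Ahsg on 11, Apoa2 on 8 and Cyp7a1 on 4. The albumin gene Alb was so on 8 of 16 arrays, at levels of -7.65 to -4.14. In KO muscle the list median spanned -0.37 to 0.79 with dexamethasone and -1.02 to 0.40 with vehicle. In WT muscle it spanned -0.57 to 0.37 with dexamethasone and -0.24 to 0.31 with vehicle, so the groups overlapped. The part of these markers in the Cth values was not tested.

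Apart from Cth, 1 of the 9 genes passed a test. With dexamethasone, Csad rose in both genotypes, which is 1 of the 8 other members in KO muscle, where 10.2% of all features were called, and 1 of 8 in WT muscle, where 10.7% were. The median change of the 8 was 0.23 in KO muscle (all features 0.080) and 0.14 in WT muscle (all features -0.076). For KO against WT averaged over treatments, 1 of 9 was called, against 1.31% of all features, and that 1 was Cth, by whose levels the list was chosen. For KO against WT limma called 0 of 8 under dexamethasone (1.84% of all features, 0.818% lower and 1.02% higher) and 0 of 8 under vehicle (0.258% of all features, 0.238% lower and 0.0199% higher), with 2 and 1 of them at an unadjusted p under 0.05, where 13.8% and 7.11% of all features were. For the interaction, limma called 0 of 8 members and 0% of all features, and 0 of the 8 had an unadjusted p under 0.05, although 2891 features (11.5%) did. The count over all features depended on the setting. It was 309 with slide as a random block, and 6 with only probes well above background on all 16 arrays.

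**Figure D2:**
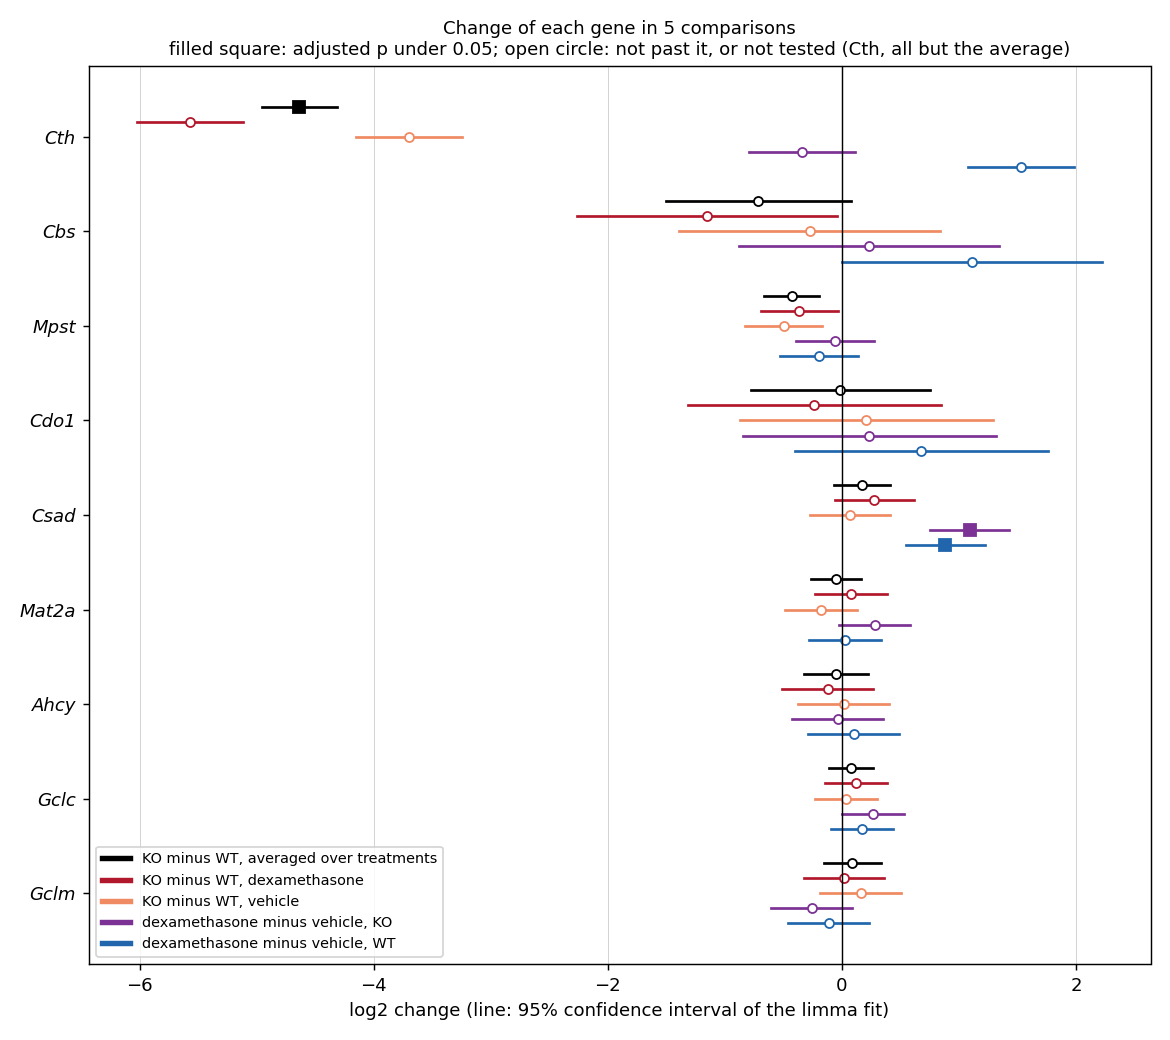
Log2 change of each gene in 5 comparisons, with 95% confidence intervals from the limma fit to 16 arrays; filled squares mark an adjusted p under 0.05. Csad passes in both dexamethasone comparisons (1.09 in KO and 0.88 in WT), and Cth in the averaged KO minus WT comparison (-4.64). The Cth p-value is not independent of the choice by Cth levels, and the other 4 Cth changes are drawn as descriptions.

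Cbs, which feeds Cth, had wide spread. Its level was -3.76, -4.90, -4.67 and -3.49 in KO muscle given dexamethasone, -3.80, -6.03, -4.06 and -3.86 in KO given vehicle, -3.01, -2.61, -3.36 and -3.23 in WT given dexamethasone, and -3.68, -3.70, -5.37 and -3.92 in WT given vehicle. All 4 WT dexamethasone arrays lay above the other 12. The difference with dexamethasone in WT was 1.11 (SE 0.52, limma adjusted p 0.207), that between KO and WT under dexamethasone was -1.15 (adjusted p 0.340), and neither passed. In each vehicle group 1 array was far below the other 3. With slide as a random block, the WT difference was 1.40 with an adjusted p of 0.043, the 1 of 31 alternatives in which it passed. Over the 16 arrays the Pearson correlation of Cbs with Cth was 0.55, a description that the group means of both genes share.

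Mpst, 3-mercaptopyruvate sulfurtransferase, was measured at 1.60, 1.33, 0.96 and 1.03 in KO muscle given dexamethasone and 1.53, 1.16, 1.15 and 1.32 in KO given vehicle, against 1.81, 1.72, 1.54 and 1.31 in WT given dexamethasone and 1.61, 1.83, 1.96 and 1.75 in WT given vehicle. Under vehicle the KO arrays all lay below the WT arrays, while under dexamethasone the genotypes overlapped. The median of 6 endothelial markers also set the genotypes apart under vehicle, at 0.29 to 0.41 in KO and -0.22 to 0.19 in WT, and overlapped under dexamethasone, at -0.21 to -0.081 in KO and -0.23 to 0.0016 in WT; their part in this or any other genotype difference was not tested. The genotype difference averaged over treatments was -0.43 (SE 0.11, 95% confidence interval -0.66 to -0.20), and its limma adjusted p of 0.083 did not pass. This difference passed under 3 of 30 alternatives. The adjusted p was 0.047 with median scaling, 0.0087 with slide as a random block and 0.037 without KO dexamethasone replicate 1. Over the alternatives the largest adjusted p was 0.405. The KO value lay below that of WT on each slide that held both genotypes under the same treatment, with differences of -0.51, -0.45 and -0.44 under vehicle and -0.34 under dexamethasone.

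Csad, cysteine sulfinic acid decarboxylase, makes hypotaurine, the precursor of taurine. Its level was 2.34, 2.09, 1.90 and 1.73 with dexamethasone and 1.02, 0.81, 0.75 and 1.12 with vehicle in KO muscle. In WT muscle it was 2.17, 1.54, 1.62 and 1.61 with dexamethasone and 0.97, 0.85, 0.72 and 0.86 with vehicle. In each genotype every dexamethasone array lay above every vehicle array. The rise was 2.13-fold in KO (1.09, SE 0.16, limma adjusted p 0.000555) and 1.85-fold in WT (0.88, SE 0.16, adjusted p 0.0028), and the difference between the 2 responses was 0.21 (95% confidence interval -0.27 to 0.69, adjusted p 0.763). The other Csad probe rose 2.25-fold in KO and 2.23-fold in WT (adjusted p 0.000117 and 0.000163).

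Under normexp background correction the Csad rise no longer passed, with 0.98 in KO (adjusted p 0.056) and 0.68 in WT (adjusted p 0.352). With slide as a fixed block it was 1.07 in KO (adjusted p 0.0087) and 0.78 in WT (adjusted p 0.087). Within slides it was 1.22, 0.98 and 1.07 in KO (slides 4, 6 and 7) and 0.68 in WT (slide 5). Markers of other cells separated the treatments in 1 genotype each. The median of 8 macrophage markers (of 9, Cd68 not tested) was -0.50 to 0.37 with dexamethasone and -0.22 to 0.36 with vehicle in KO muscle, which overlapped, and -0.51 to -0.089 with dexamethasone and 0.062 to 0.64 with vehicle in WT muscle, which did not. The endothelial median was -0.21 to -0.081 with dexamethasone and 0.29 to 0.41 with vehicle in KO muscle, with no overlap, and overlapped in WT muscle at -0.23 to 0.0016 with dexamethasone and -0.22 to 0.19 with vehicle. The part of either in the Csad values was not tested. Without the 2 arrays of raised neutrophil markers, Csad rose by 0.98 in KO (adjusted p 0.0032) and 0.92 in WT (adjusted p 0.0050).

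As Csad was the member that rose with dexamethasone, the 250 bases before each of its annotated starts are printed here from RefSeq (GRCm38.p6, both on the minus strand, 5′ to 3′). Capitals mark matches to the motifs searched. The first window lies at chr15:102205053-102205302 and the second at chr15:102189044-102189293.
Csad window 1: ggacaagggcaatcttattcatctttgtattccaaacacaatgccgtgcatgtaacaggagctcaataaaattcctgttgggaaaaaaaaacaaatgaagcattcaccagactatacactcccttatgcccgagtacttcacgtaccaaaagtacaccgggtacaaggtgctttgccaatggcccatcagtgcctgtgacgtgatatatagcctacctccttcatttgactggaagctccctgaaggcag
Csad window 2: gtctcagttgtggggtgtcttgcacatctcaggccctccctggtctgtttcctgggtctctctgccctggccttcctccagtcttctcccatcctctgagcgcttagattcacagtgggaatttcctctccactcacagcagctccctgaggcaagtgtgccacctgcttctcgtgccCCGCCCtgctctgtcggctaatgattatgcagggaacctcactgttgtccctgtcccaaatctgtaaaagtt
Both strands were searched for 5 motifs: the glucocorticoid response element (GNACANNNTGTNC), the amino acid response element core (TGATGNAA), the antioxidant response element core (TGACNNNGC), the CACCC box (CCACCC) and the GC box (GGGCGG). The first window held none of them and the second held 1 GC box, 72 bases before the start. Over 32851 such windows of the genome, 0.387% held a match to the glucocorticoid response element, 3.45% to the amino acid response element core, 10.2% to the antioxidant response element core, 28.1% to the CACCC box and 32.7% to the GC box. Windows were at hand for 6 of the 9 genes, 9 windows in all, and not for Cth, Cdo1 or Gclc. None of the 9 held the glucocorticoid or the amino acid response element; the antioxidant core was found once in Gclm, 134 bases before the start, and once in a window of Mpst, 12 bases before it, and the CACCC box once in Cbs, 114 bases before it. A match is a description of letters in these windows.

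Cdo1, cysteine dioxygenase, acts just before Csad. Its level was 1.72, 0.76, 0.84 and -0.16 in KO muscle given dexamethasone, 0.73, -0.11, 0.18 and 1.43 in KO given vehicle, 2.28, 1.30, 0.48 and 0.046 in WT given dexamethasone, and 0.48, 0.90, -0.21 and 0.22 in WT given vehicle. All 4 groups overlapped. The difference with dexamethasone was 0.24 in KO (limma adjusted p 0.874) and 0.68 in WT (95% confidence interval -0.40 to 1.76, adjusted p 0.441).

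Cdo1 is abundant in fat cells, and the 3 arrays highest in it and the 1 lowest were also so in fat cell markers, while other low arrays differed. The 3 arrays with the highest Cdo1, WT dexamethasone replicate 1, KO dexamethasone replicate 1 and KO vehicle replicate 4, had adipocyte marker medians of 0.45, 0.77 and 1.01 (log2, relative to the mean of all arrays), the 3 highest of the 16. WT vehicle replicate 3 was lowest in both. The next lowest in Cdo1, KO dexamethasone replicate 4 and KO vehicle replicate 2, ranked 13 and 11 of 16 from the top in adipocyte markers. The next lowest in adipocyte markers, WT dexamethasone replicates 4 and 3 (-0.85 and -0.67), ranked 13 and 9 in Cdo1. The adipocyte medians, over 7 of 8 markers with Adrb3 not tested, spanned -0.37 to 0.77 in KO muscle given dexamethasone, -0.27 to 1.01 in KO given vehicle, -0.85 to 0.45 in WT given dexamethasone and -0.89 to 0.20 in WT given vehicle. All 7 were well above background on all 16 arrays, and their part in the Cdo1 values was not tested. Slow-fibre markers varied too: the median of 9 was lowest of the 16 arrays on WT vehicle replicate 3 (-1.46), high on KO dexamethasone replicate 1 (1.40) and KO vehicle replicate 4 (1.01), 0.16 on WT dexamethasone replicate 1, and highest on WT dexamethasone replicate 2 (2.20), where Cdo1 was 1.30. Their part was not tested either.

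**Figure D3:**
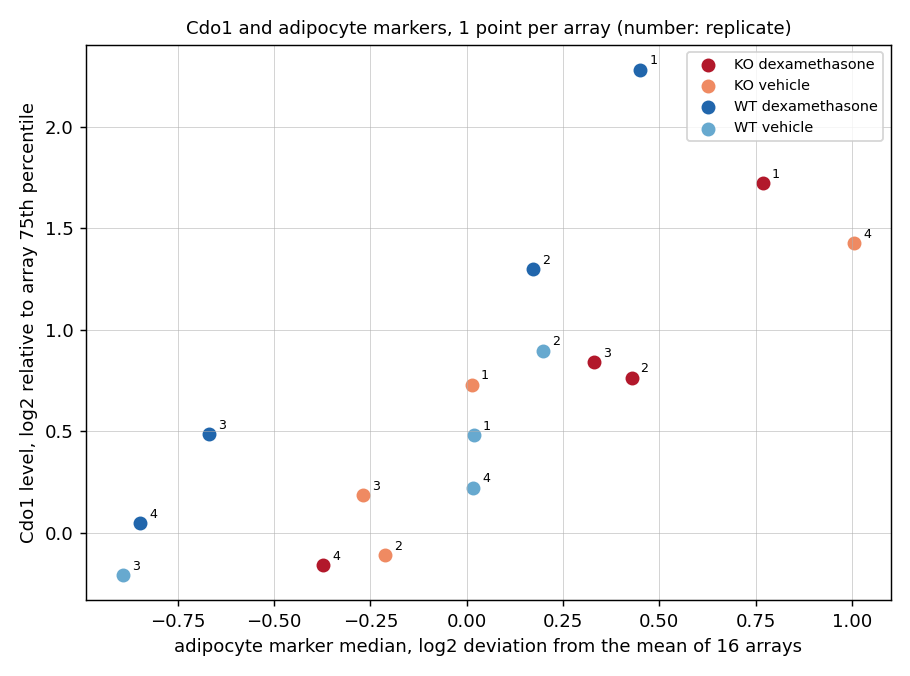
Cdo1 level (y axis, log2 relative to the array's 75th percentile) against the median of 7 adipocyte markers (x axis, log2 deviation from the mean of 16 arrays), 1 point per array, coloured by group and numbered by replicate. The arrays with the highest Cdo1, 2.28, 1.72 and 1.43, lie to the right at marker medians of 0.45, 0.77 and 1.01, with all 4 groups intermixed.

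Mat2a and Ahcy, the methionine cycle members, did not pass in any comparison. Mat2a was at 5.84, 6.18, 5.99 and 6.14 in KO muscle given dexamethasone and 5.82, 6.01, 5.66 and 5.55 in KO given vehicle, against 6.03, 5.75, 6.10 and 5.96 in WT given dexamethasone and 5.63, 5.89, 6.26 and 5.96 in WT given vehicle. Its largest difference was 0.28 with dexamethasone in KO (95% confidence interval -0.026 to 0.59, limma adjusted p 0.292). This difference passed under 1 of 31 alternatives, with slide as a random block (adjusted p 0.049). Ahcy was at -1.57 to -1.02 in KO given dexamethasone, -1.47 to -1.07 in KO given vehicle, -1.63 to -0.77 in WT given dexamethasone and -1.51 to -1.12 in WT given vehicle. Its differences ran from -0.12 to 0.10 over the 5 comparisons of groups, and all groups overlapped.

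Gclc and Gclm encode the catalytic and the modifier subunit of glutamate-cysteine ligase, and neither passed in any comparison. Gclc was at 1.20 to 1.55 in KO muscle given dexamethasone, 0.94 to 1.36 in KO given vehicle, 1.06 to 1.52 in WT given dexamethasone and 0.95 to 1.23 in WT given vehicle. Its difference with dexamethasone was 0.26 in KO (95% confidence interval -0.0014 to 0.53, limma adjusted p 0.239) and 0.17 in WT (adjusted p 0.427). Gclm was at -1.51 to -0.84 in KO given dexamethasone, -1.07 to -0.62 in KO given vehicle, -1.32 to -0.89 in WT given dexamethasone and -1.25 to -0.85 in WT given vehicle. With dexamethasone it differed by -0.26 in KO (adjusted p 0.427) and -0.11 in WT (adjusted p 0.715), so the 2 subunits had opposite signs and overlapping groups in both genotypes.

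Around the 9 genes, 95 other genes of sulfur amino acid handling and its regulators were looked at in 7 lists, and 85 could be tested. With dexamethasone 13 of them were higher and 2 lower in KO muscle, while over all features 5.69% were higher and 4.55% lower. In WT muscle 11 were higher and 2 lower, against 5.05% and 5.65% of all features. The KO against WT comparisons gave 1 higher and 3 lower under dexamethasone (1.02% and 0.818% of all features), 0 under vehicle by limma (0.258% of all features), and 4 lower averaged over treatments (0.949% of all features were lower). The interaction gave 0 of 85 by limma. At an unadjusted p under 0.05 there were 12 of the 85 under vehicle (7.11% of all features) and 12 for the interaction (11.5% of all features). With dexamethasone the list medians ran from -0.12 to 0.19 in KO muscle (all features 0.080) and from -0.043 to 0.17 in WT muscle (all features -0.076).

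**Figure D4:**
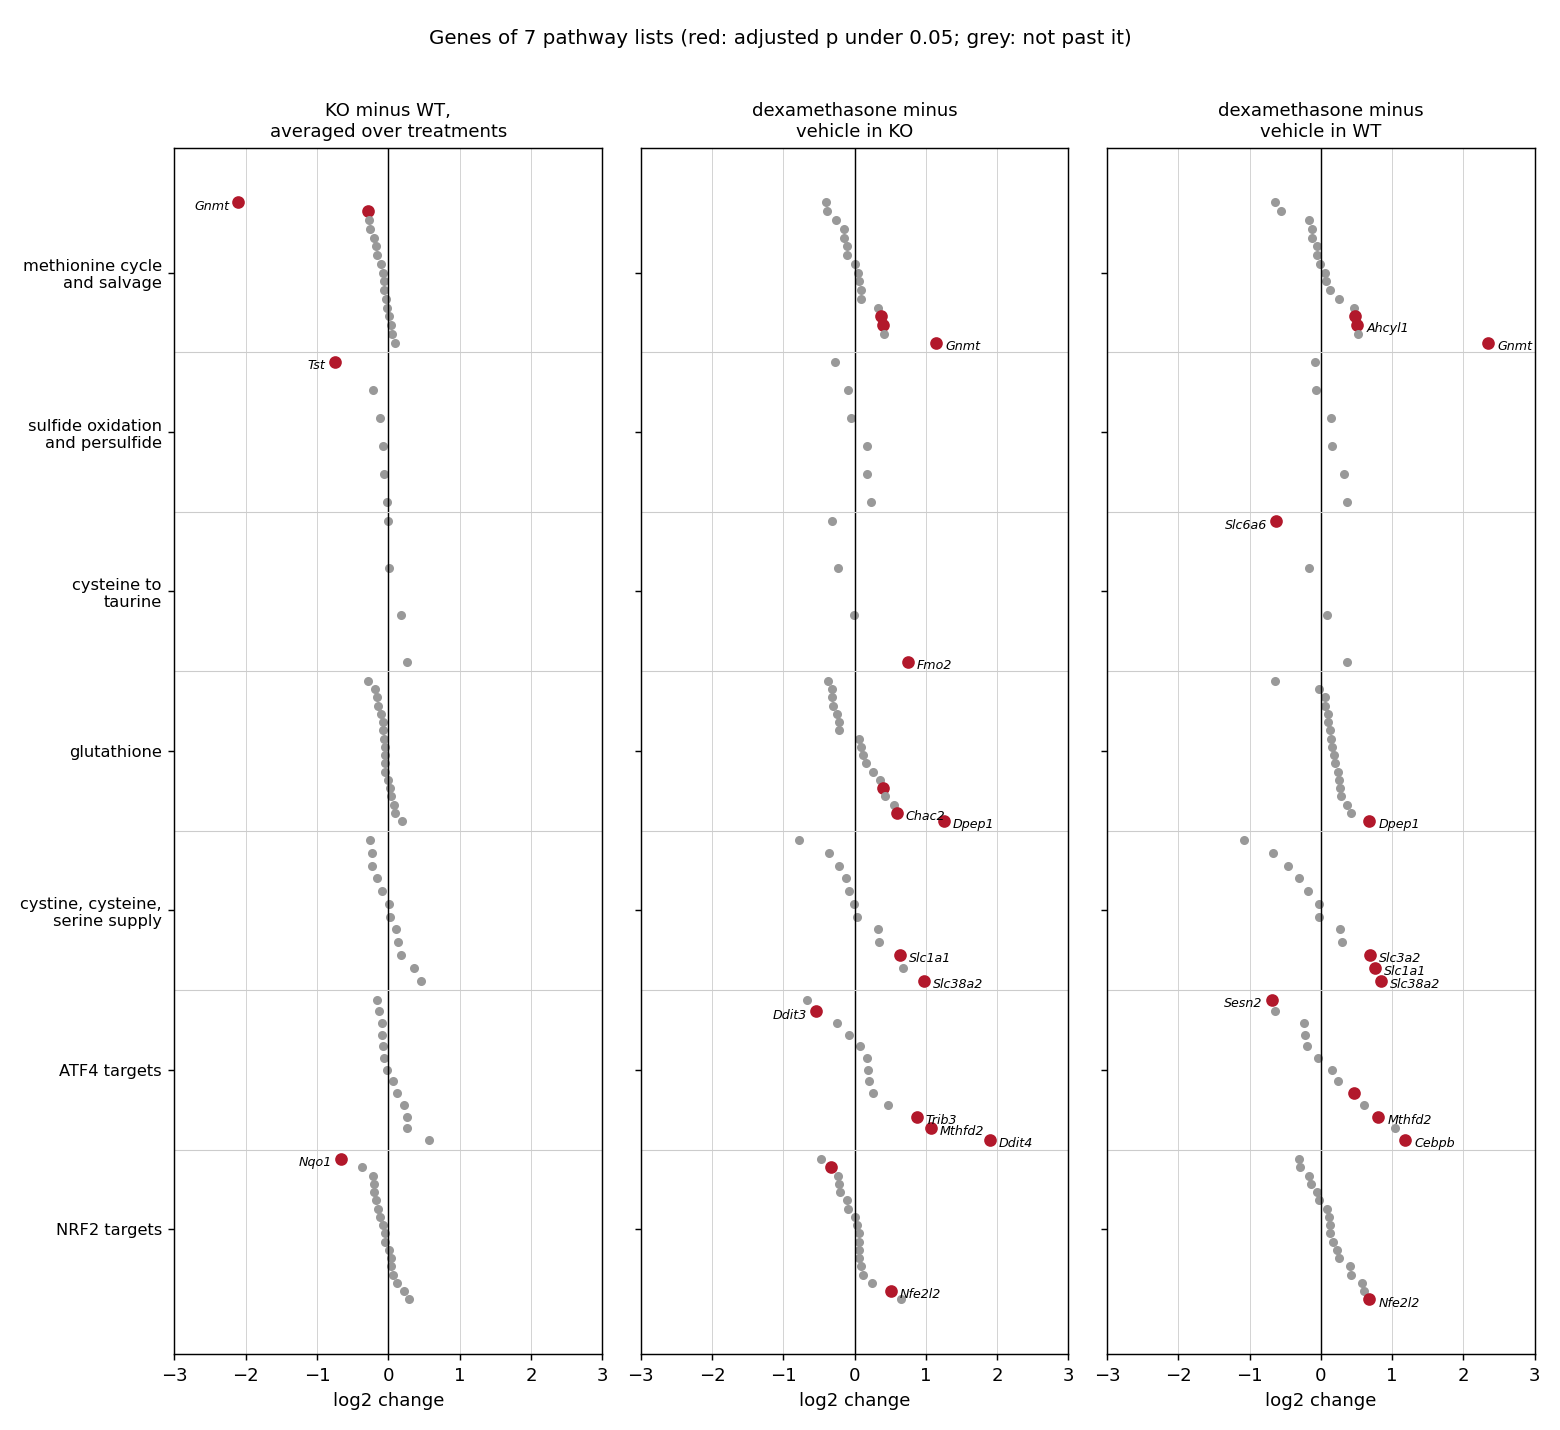
Log2 change of each tested gene of 7 pathway lists in 3 comparisons (KO minus WT averaged over treatments, dexamethasone minus vehicle in KO, and the same in WT), with 1 point per gene, sorted within its list; red points passed an adjusted p under 0.05, and those with a change of at least 0.5 in size are named. Gnmt lies furthest out, at -2.10 for KO minus WT and 2.35 with dexamethasone in WT.

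Among 17 tested genes of the methionine cycle and salvage, Gnmt stood out. It encodes glycine N-methyltransferase, which spends S-adenosylmethionine on glycine and so disposes of excess methyl groups. Its level was -1.02, -0.85, -1.65 and -1.29 in KO muscle given dexamethasone, -1.83, -3.50, -2.05 and -2.01 in KO given vehicle, 1.79, 1.71, 1.46 and 1.06 in WT given dexamethasone, and -0.67, -0.95, -1.04 and -0.72 in WT given vehicle. Within each genotype the treatments did not overlap, and within each treatment the genotypes did not. Gnmt rose 2.21-fold with dexamethasone in KO (1.15, SE 0.31, limma adjusted p 0.033) and 5.09-fold in WT (2.35, SE 0.31, adjusted p 0.000385). The difference between the responses was -1.20 (SE 0.44, adjusted p 0.348) and did not pass. The rise in KO lost its call without KO dexamethasone replicate 1, 2 or 4 (adjusted p 0.080, 0.088 and 0.062), and without KO vehicle replicate 2, the lowest array, it was 0.76 (adjusted p 0.039).

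Gnmt was 6.52-fold lower in KO than in WT muscle under dexamethasone (log2 change -2.70, adjusted p 0.000369), 2.84-fold lower under vehicle (-1.50, adjusted p 0.088, not passing) and 4.30-fold lower on average (-2.10, SE 0.22, adjusted p 0.000112). Within slides, KO minus WT was -1.06, -1.38 and -0.79 under vehicle and -2.70 under dexamethasone. The 250 bases before its start are printed because it was both higher with dexamethasone and lower in KO (RefSeq, GRCm38.p6, chr17:46729166-46729415, minus strand, 5′ to 3′). Capitals mark 2 CACCC boxes, 246 and 201 bases before the start.
Gnmt: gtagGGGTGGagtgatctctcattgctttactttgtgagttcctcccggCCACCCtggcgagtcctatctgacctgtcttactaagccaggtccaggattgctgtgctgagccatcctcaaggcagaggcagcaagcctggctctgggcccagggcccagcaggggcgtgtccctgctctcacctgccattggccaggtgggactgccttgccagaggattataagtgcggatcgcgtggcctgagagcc
The CACCC box is the kind of GC-rich element that Krüppel-like factors are known to bind, and 28.1% of all windows held one, so its presence here says nothing about binding.

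Of the other methionine cycle genes, Ahcyl1, a relative of Ahcy, rose 1.29-fold in KO (limma adjusted p 0.033) and 1.42-fold in WT (adjusted p 0.0057) with dexamethasone. Its other probe passed in neither (1.15-fold, adjusted p 0.386, and 1.09-fold, adjusted p 0.563), and the call in KO was lost under 14 of 31 alternatives. Ahcyl2 rose 1.40-fold in WT (adjusted p 0.0059) and gave 1.03-fold in KO without passing (adjusted p 0.867). Its other 2 probes gave 0.12 and -0.090 in WT on the log2 scale and did not pass. Mtrr, methionine synthase reductase, averaged 1.22-fold lower in KO (adjusted p 0.039), but its other 2 probes gave -0.042 and 0.16 and the call was lost under 26 of 30 alternatives.

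Tst encodes the mitochondrial sulfurtransferase rhodanese, which acts on persulfides formed when hydrogen sulfide is oxidised, and is a close relative and chromosomal neighbour of Mpst. Its level was 2.28, 2.07, 1.70 and 1.67 in KO muscle given dexamethasone and 2.53, 2.14, 1.93 and 2.26 in KO given vehicle, against 3.32, 2.54, 2.67 and 2.62 in WT given dexamethasone and 2.72, 2.95, 2.91 and 2.87 in WT given vehicle. All 8 KO arrays lay below all 8 WT arrays, by a margin of 0.0054 at the closest. The difference was 1.69-fold averaged over treatments (log2 change -0.75, SE 0.13, limma adjusted p 0.011), and the adjusted p was 0.107 with slide as a fixed block. Within slides, KO minus WT was -0.70, -0.79 and -0.38 under vehicle and -0.92 under dexamethasone. The other 5 tested genes of hydrogen sulfide oxidation and persulfides passed in no comparison.

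**Figure D5:**
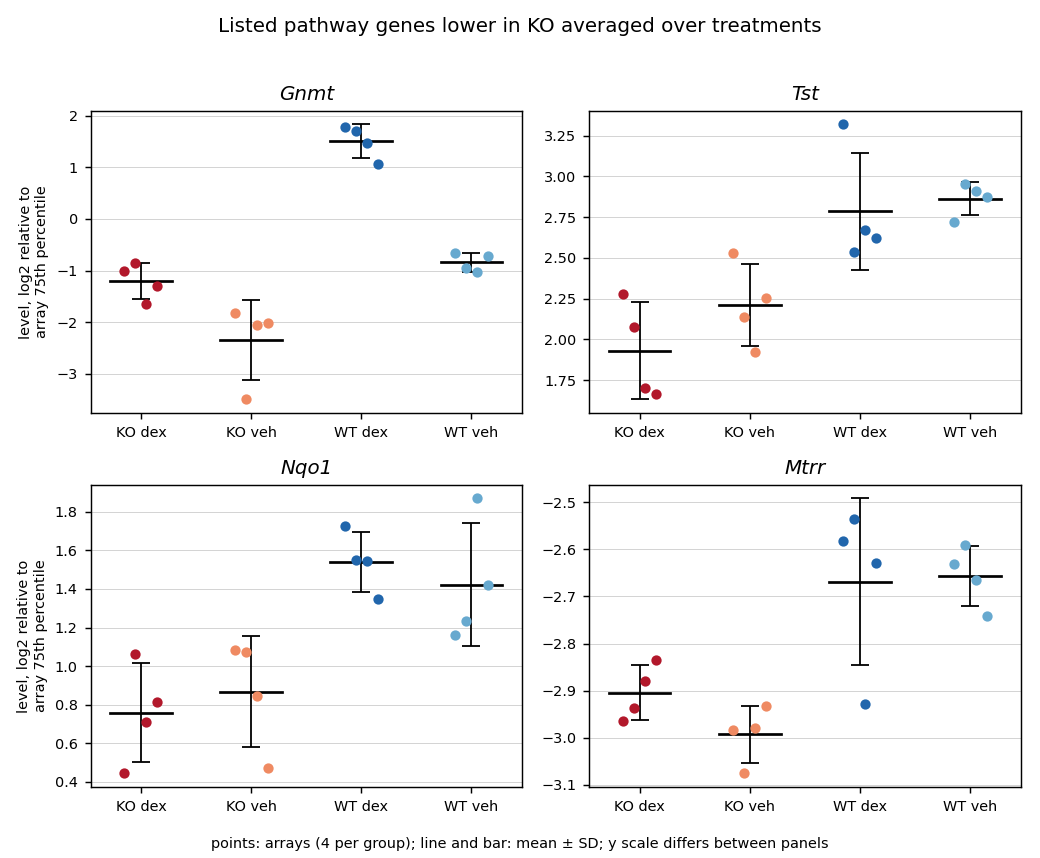
Level by array of Gnmt, Tst, Nqo1 and Mtrr, the 4 genes of the pathway lists that were lower in KO muscle averaged over treatments (log2 relative to the array's 75th percentile; points are arrays, lines means, bars SD, n = 4). Gnmt and Tst are lower on KO than on WT arrays within each treatment, and in Gnmt the arrays given dexamethasone also lie above those given vehicle within each genotype.

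Of 4 tested genes on the way to taurine other than the members, the taurine transporter gene Slc6a6 fell 1.55-fold with dexamethasone in WT (log2 change -0.63, limma adjusted p 0.000727), and in KO its change was -0.23 (adjusted p 0.154). The call in WT was lost with median scaling (-0.39, adjusted p 0.124). The other Slc6a6 probe passed in KO (-0.67, adjusted p 0.024) and not in WT (-0.49, adjusted p 0.087). Both probes thus had negative changes in both genotypes, and the difference between the responses passed on neither (adjusted p 0.281 and 0.813). Fmo2, a flavin monooxygenase, rose 1.68-fold in KO (adjusted p 0.013) and 1.29-fold in WT without passing (adjusted p 0.203). Its other probe rose 1.62-fold in KO (adjusted p 0.010) and 1.93-fold in WT (adjusted p 0.0015). In the glutathione list of 18 genes, Dpep1, a dipeptidase that splits cysteinylglycine, rose 2.38-fold in KO (adjusted p 6.95e-05) and 1.60-fold in WT (adjusted p 0.0065). Chac2, which degrades glutathione, rose 1.51-fold (adjusted p 0.011) and Abcc4, a multidrug resistance exporter, 1.32-fold (adjusted p 0.017), both in KO. In WT they rose 1.29-fold and 1.19-fold and did not pass (adjusted p 0.103 and 0.120). The other Abcc4 probe passed in WT (0.47, adjusted p 0.034) and not in KO (-0.069, adjusted p 0.849).

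In the supply list of 12 tested genes, the transporter genes Slc1a1 and Slc38a2 rose with dexamethasone, 1.55-fold and 1.97-fold in KO (limma adjusted p 0.014 and 0.016) and 1.69-fold and 1.80-fold in WT (adjusted p 0.0053 and 0.033). Slc3a2, the heavy chain of several amino acid exchangers, rose 1.62-fold in WT (adjusted p 0.011). Other probes did not pass in WT for Slc3a2 (1.13-fold, adjusted p 0.464) and Slc38a2 (1.21-fold, adjusted p 0.346). Slc7a11, the cystine-carrying partner of Slc3a2, was among the 2 genes of that list not tested. Of 13 tested ATF4 genes, the list of a transcription factor that is known to induce Cth when amino acids run short, Ddit4, Mthfd2 and Trib3 rose and Ddit3 fell in KO, and Atf4, Cebpb and Mthfd2 rose and Sesn2 fell in WT. The other Trib3 probe did not pass in KO (0.090, adjusted p 0.934), and the Atf4 call was lost under 20 of 31 alternatives. Mthfd2, a mitochondrial folate enzyme, rose 2.10-fold in KO and 1.74-fold in WT (adjusted p 0.0035 and 0.020). Ddit4, a known glucocorticoid target that restrains mTORC1, rose 3.73-fold in KO (adjusted p 0.0054) and 2.06-fold in WT without passing (adjusted p 0.101). Cebpb rose 2.27-fold in WT (adjusted p 0.0028). On the log2 scale Trib3 changed by 0.61 and Ddit3 by -0.23 in WT, and Atf4 by 0.19 and Sesn2 by 0.18 in KO, none passing. For no list gene did the difference between the responses pass, so a call in 1 genotype alone is not a difference between genotypes.

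In the NRF2 list of 18 genes, which includes regulators of Gclc and Gclm, Nfe2l2, the gene of NRF2 itself, rose 1.42-fold in KO and 1.60-fold in WT with dexamethasone (limma adjusted p 0.0086 and 0.0014). Txnrd1, thioredoxin reductase, fell 1.26-fold in KO (adjusted p 0.032), a call lost under 16 of 31 alternatives. Nqo1, a quinone reductase, averaged 1.59-fold lower in KO muscle (-0.67 against WT on the log2 scale, SE 0.13, adjusted p 0.020), with every KO array below every WT array. That call was lost with median scaling (adjusted p 0.081), with slide as a fixed block (adjusted p 0.094) and without the 2 arrays of raised neutrophil markers (adjusted p 0.084). Keap1, the inhibitor of NRF2, was 1.36-fold higher in KO under dexamethasone (adjusted p 0.045), a call lost under 23 of 31 alternatives.

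The genes whose levels followed Cth most closely over the 16 arrays were found by Pearson correlation among tested features with a symbol. The 10 closest were Lzts3 (r = 0.986), Lin52 (0.984), Prodh (0.983), Pxmp2 (0.979), Epop (0.979), Bdnf (0.977), Pole (0.977), Kyat3 (0.976), Ivd (0.973) and Bckdhb (0.973). These values describe a pattern dominated by the difference between 8 KO and 8 WT arrays, and the choice by likeness to Cth fixes the direction of that difference. The same choice favours genes that are higher with dexamethasone in WT, where Cth was higher, so that shared direction is no separate result. All 10 had lower group means in KO, by -3.23 to -1.25 (log2, averaged over treatments), and higher ones with dexamethasone in WT, by 0.19 to 0.95.

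Of these, Prodh encodes proline dehydrogenase, Ivd isovaleryl-CoA dehydrogenase of leucine breakdown, Bckdhb a subunit of the branched-chain ketoacid dehydrogenase, and Kyat3 a kynurenine aminotransferase. Mean Prodh was 0.49 in KO muscle given dexamethasone, 0.16 in KO given vehicle, 3.89 in WT given dexamethasone and 3.22 in WT given vehicle. Bdnf, which encodes a neurotrophin, averaged -5.57 in KO given dexamethasone, -5.29 in KO given vehicle, -2.24 in WT given dexamethasone and -3.19 in WT given vehicle. This is the order of group means that Cth also had, which the choice by likeness favours. Its signal was well above background on 15 of 16 arrays. Among the other members, Mpst (0.67) and Cbs (0.55) had the highest correlations with Cth, and the remaining 6 lay between -0.20 and 0.13.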

How the data were processed

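RNA of 16 quadriceps samples was amplified and measured on 1-colour Agilent arrays, 1 array per sample. The deposited files give the linear intensity of each spot, per the file headers made by Feature Extraction 10.7.3.1 with a grid of build mm9. A deposited series table holds log2 values of the same arrays, with medians of 6.85 to 6.87. Its log base was taken from the values, and the sources used here do not give its normalization.

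The processed signal was put on a log2 scale, minus each array's 75th percentile. Control spots and outlier spots were left out, and a probe was kept if at least 4 arrays had it well above background. Accessions were matched to RefSeq symbols (24836 of 41174 probes), and the brightest probe stood for a gene. Group means were fitted with limma 3.58.1 in R 4.3.3 (eBayes, two-sided, Benjamini-Hochberg over 25187 features, threshold 0.05). The fit was tested on simulated data with independent noise on each array and 200 features changed. These data held no slide effect, so the test cannot show how the fit deals with slides. The files lack the mean signal that was planned for normexp correction (offset 50), so the median signal was used.

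The 9 genes, the lists and the markers were chosen with earlier results of these data known. Named are the 9 genes, Klf15, Fkbp5, list genes past the threshold (except 1 not reported here) and the 10 genes most like Cth. The deviations of same-numbered replicates correlated at -0.66 to 0.66, with 5 of 24 over 0.1, so the numbers do not pair samples. Slide was fitted as a block only among the alternatives, and the consensus correlation within slides was 0.574. No scan term was fitted. The 1 array on the second of 2 scans was WT dexamethasone replicate 3, alone on slide 1. The 3 arrays marked for evaluation in the file headers were WT dexamethasone replicate 1 and KO dexamethasone replicates 2 and 4. The first principal component held 34.2% of the variation. On it all arrays of slide 7 (0.385 to 0.413) and WT dexamethasone replicate 1 (0.416) lay above the rest. All columns of per-sample values could be mapped to samples.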

Additional observations from a re-analysis of the deposited data

Results flagged for a closer look

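The probes of the 9 genes and of Klf15, Fkbp5, Gnmt, Tst, Nqo1 and Mtrr were looked at, not those of the other named genes. In 84 groups of 4 arrays, 5 held an array far from the other 3 by Dixon's criterion. Chance gives about 1 in 20 such groups, and 5.95% were found.

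Cbs had 2 of the 5, both low: KO vehicle replicate 2 was at -6.03, with the other 3 at -4.06 to -3.80, and WT vehicle replicate 3 was at -5.37, with the other 3 at -3.92 to -3.68. Csad in WT muscle given dexamethasone was highest on replicate 1, at 2.17, with the other 3 at 1.54 to 1.62. Klf15 in KO muscle given dexamethasone was lowest on replicate 2, at 0.24, with the other 3 at 0.58 to 0.64. Gnmt in KO muscle given vehicle was lowest on replicate 2, at -3.50, with the other 3 at -2.05 to -1.83.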

How the results depend on the processing

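The list was chosen by Cth levels on these same arrays, so the p-values for Cth are not independent of that choice. The Cth difference between KO and WT averaged over treatments kept its direction and its call under all 30 alternatives, from -4.76 to -2.80, with the smallest values under normexp. Its description under dexamethasone in KO was reversed there: 0.23 after normexp and 0.091 after normexp without the spots of high local background, against -0.34. The count of members called changed as follows. With dexamethasone in WT it was 0 after normexp and 0 with slide as a fixed block (main 1), and 2 with slide as a random block, which added Cbs. With dexamethasone in KO it was 0 after normexp, and 2 with slide as a random block, which added Mat2a. For KO against WT under vehicle it was 1 with the random block, and averaged over treatments it was 2 with the random block, with median scaling and without KO dexamethasone replicate 1, each time by adding Mpst. Leaving out 1 array at a time gave 1 to 2 for the average and left the other counts as they were. The rise of Csad was lost in KO after normexp and in WT after normexp and with slide as a fixed block, and with 1 array left out it was 0.98 to 1.19 in KO and 0.74 to 0.95 in WT. Fits of only the groups of a contrast give no value for the average and the interaction. The causes of these changes were not tested.

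With dexamethasone in WT 1272 features were higher and 1422 lower (median change -0.076), and with median scaling 1800 and 395 (median 0.16). For KO against WT under dexamethasone the split was 258 and 206, and 24 and 181 with median scaling. Over all features, the count for KO against WT under dexamethasone was 45 with slide as a fixed block and 51 under normexp (main 464). Under normexp the counts were 373 with dexamethasone in KO and 165 in WT, where the correction was decided on 8 arrays by at most 8 spots of high local background; without those spots they were 2150 and 2120. With the replicate block the counts of members called were as before (1, 1, 0, 0, 1 and 0), Cth averaged -4.64, and the rise of Gnmt in KO lost its call (1.15, adjusted p 0.055). Same-numbered samples did not pair. Of 46 member values that did not pass, 30 changed sign under at least 1 alternative, so their direction is not settled.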
